A study of Mus musculus with 17 samples.

Results

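The levels of 10 primitive endoderm genes were followed in mouse embryonic stem (ES) cell lines: the transcription factors Gata4, Gata6, Sox7, Sox17 and Hnf4a, the receptor Pdgfra, and the endocytic genes Dab2, Cubn, Amn and Lrp2. They were taken as a named list, with transcripts summed per gene symbol of GENCODE mouse M21, and are 10 of the 19796 genes that passed the filter on low counts. All 10 passed it. Sox17 passed through the iFoxA1 libraries alone, since no library of another line held more than 8 Sox17 counts.

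Primitive endoderm is the extraembryonic layer that forms beside the pluripotent epiblast in the blastocyst and gives rise to visceral and parietal endoderm. FGF signalling through ERK favours it, GATA6 sets it against the epiblast factor NANOG, and GATA4, SOX17 and SOX7 follow, while PDGFRA is the PDGF receptor that marks its precursors. In visceral endoderm, HNF4A drives genes of nutrient transport. Cubilin (Cubn) is a large extracellular receptor held at the membrane by amnionless (Amn), megalin (Lrp2) is a multiligand receptor that works beside them, and DAB2 is the clathrin adaptor that binds the tail of megalin. ES cells forced to express GATA4 or GATA6 turn into cells of this lineage.

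RNA came from 5 lines that the labels call iFoxA1, iFoxC1, iFoxG1, iFoxL2 and iFoxP3. All are MC1 ES cells of the 129S6/SvEvTac background that carry, in the Rosa26 locus, puromycin resistance and the forkhead factor of the line's name, tagged with His6-FLAG at its C terminus, and doxycycline (Dox) keeps the factor off. At 0 h the cells were in medium with 15% serum, 1000 U/ml leukemia inhibitory factor, 0.2 µg/ml Dox and puromycin. At 24 h they had been washed free of Dox and grown in a differentiation medium with 10% serum, so time, transgene and medium changed together and cannot be told apart within a line. iFoxA1 had 2 libraries at 0 h and 3 at 24 h, and each other line had 1 and 2. No line without a transgene was analysed here, and the labels do not say whether a line is 1 clone or whether replicates were separate cultures, so p-values measure only the spread between these libraries.

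In mm10, Gata4 is on chromosome 14, from 63198922 to 63271692 on the minus strand, and Sox7 lies on the same chromosome, from 63943673 to 63950732 on the plus strand. Gata6 is on chromosome 18 (11052064 to 11085635, plus strand), Sox17 on chromosome 1 (4490931 to 4497354, minus) and Pdgfra on chromosome 5 (75152292 to 75198215, plus). Chromosome 2 holds Cubn (13276338 to 13491813, minus), Lrp2 (69424340 to 69586065, minus) and Hnf4a (163506808 to 163572910, plus). Dab2 is on chromosome 15 (6299788 to 6440712, plus) and Amn on chromosome 12 (111271095 to 111276426, plus). All are protein-coding, and values are sums over their annotated transcripts.

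Library totals ran from 17.7 M to 37.2 M estimated counts. The 5 deeper libraries, all at 24 h with at least 32.9 M, are iFoxA1 replicate 3 and replicate 2 of every other line, and the 12 shallower ones reached at most 22.2 M. Levels are given as CPM, counts relative to the library's TMM-scaled total, for comparing libraries, and as TPM, which is also scaled to transcript length, for comparing genes. Foxa1 itself was at 1.87 and 3.05 CPM in iFoxA1 at 0 h and at 236.5, 252 and 76.8 CPM in replicates 1, 2 and 3 at 24 h, against at most 0.488 CPM in any other line. Foxl2 in iFoxL2 was at 1.14 CPM at 0 h and at 149 and 11.5 CPM in replicates 1 and 2 at 24 h. iFoxA1 replicate 3 and iFoxL2 replicate 2 at 24 h thus had the least of their own transgene. Markers of ES cells were present in all 6 libraries at 0 h: Pou5f1 ran from 882 to 1192 CPM, Sox2 from 245 to 308 CPM and Nanog from 579 to 1312 CPM. In bulk RNA, fewer cells of a type and less RNA per cell cannot be told apart.

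Where a promoter could bear on members that differ together, RefSeq promoters (GRCm38.p6, the build that mm10 names, from 250 bases before to 50 bases after the start) were searched on both strands for the GATA letters AGATAA and the related TGATAA, the SOX letters ACAATG and the related ACAAAG, and the forkhead letters TGTTTAC with the related forms TGTTTGC and also TATTTAC. A match describes letters and is not a binding site. No 2 matches overlapped. The table holds 8 promoters of 6 members (Amn, Cubn, Dab2, Hnf4a, Lrp2 and Pdgfra, with 2 starts each for Dab2 and Hnf4a). The upstream Dab2 start, chr15:6299539-6299838 on the plus strand, holds TGATAA at -179 to -174 and AGATAA on the minus strand at 14 to 19, counted from the start site. The downstream Dab2 start, chr15:6386498-6386797 on the plus strand, holds none of the 7 motifs. Cubn, chr2:13491827-13492126 on the minus strand, holds none, and Pdgfra, chr5:75152001-75152300 on the plus strand, holds TATTTAC at 4 to 10. These 4 are shown because Dab2, Cubn and Pdgfra differed most clearly between iFoxA1 and the other lines among the 6 members searched. Each is written 5′ to 3′ on the gene's own strand, and capitals mark the matches.
Dab2 upstream: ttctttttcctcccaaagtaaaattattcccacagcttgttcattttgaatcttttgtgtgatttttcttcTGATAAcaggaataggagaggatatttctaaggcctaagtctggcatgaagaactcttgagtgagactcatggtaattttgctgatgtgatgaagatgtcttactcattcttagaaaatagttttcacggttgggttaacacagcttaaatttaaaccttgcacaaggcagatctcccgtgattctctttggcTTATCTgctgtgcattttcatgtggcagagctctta
Dab2 downstream: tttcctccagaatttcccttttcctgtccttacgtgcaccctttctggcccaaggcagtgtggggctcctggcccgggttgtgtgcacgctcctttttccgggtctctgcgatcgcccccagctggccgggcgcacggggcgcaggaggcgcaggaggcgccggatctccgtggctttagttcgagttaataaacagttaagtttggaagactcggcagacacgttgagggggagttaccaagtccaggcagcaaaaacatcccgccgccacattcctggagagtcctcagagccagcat
Cubn: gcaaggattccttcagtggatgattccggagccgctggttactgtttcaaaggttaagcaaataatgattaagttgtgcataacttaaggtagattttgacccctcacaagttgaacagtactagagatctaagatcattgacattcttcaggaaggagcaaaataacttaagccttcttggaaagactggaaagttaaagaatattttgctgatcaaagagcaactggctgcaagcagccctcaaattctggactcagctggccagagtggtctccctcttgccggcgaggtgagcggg
Pdgfra: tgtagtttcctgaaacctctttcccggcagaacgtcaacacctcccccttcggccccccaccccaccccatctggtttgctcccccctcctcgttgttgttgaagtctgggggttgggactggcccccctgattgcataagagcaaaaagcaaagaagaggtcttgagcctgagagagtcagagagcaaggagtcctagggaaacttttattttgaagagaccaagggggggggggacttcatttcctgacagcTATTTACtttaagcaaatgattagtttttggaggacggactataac

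The upstream Hnf4a promoter holds AGATAA at -52 to -47, and the Amn, Lrp2 and downstream Hnf4a promoters hold none of the motifs. Of all 32851 promoters in the table, 18.6% hold a GATA motif (11.2% AGATAA, 9.05% TGATAA), 28.6% a SOX motif (12.6% ACAATG, 18.7% ACAAAG) and 11.2% a forkhead motif (3.65% TGTTTAC, 5.06% TGTTTGC, 3.04% TATTTAC). Transcripts starting within 250 bases of the downstream Dab2 start carried 75.3% of Dab2 TPM summed over the libraries, and those at the upstream start, which has both GATA matches, carried 8.31%.

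Before induction, iFoxA1 stood apart from the 4 other lines. By quasi-likelihood testing in edgeR, with p-values adjusted by Benjamini-Hochberg over all 19796 genes, 7 of the 10 members were higher in iFoxA1 at 0 h and 0 were lower, where 1.20% of all genes were higher and 0.384% lower. The 7 are Gata4, Gata6, Sox7, Sox17, Pdgfra, Dab2 and Cubn. Hnf4a, Amn and Lrp2 did not pass. The median difference over the 10 members was 4.15 on the log2 scale, against 0.05 over all genes. Over the 9 members that would also pass the filter without the iFoxA1 libraries, which leaves out Sox17, 6 were higher and the median was 4.10. For 9 of the 10, the exception being Hnf4a, both iFoxA1 libraries lay above every library of the other lines. The 9 include Sox17, and the share of all genes with such a gap is not given here. Foxa1 also lay above every other line in these 2 libraries, as given above, and its part in the difference was not tested.

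Among the factors, Gata6, the first of them in the lineage, was at 11.6 and 13.5 CPM in the 2 iFoxA1 libraries and at 0.95 (iFoxC1), 0.98 (iFoxG1), 0.43 (iFoxL2) and 0.69 (iFoxP3) CPM in the others. The groups did not overlap, and the difference was 4.10 ± 0.24 (log2, SE; adjusted p 0.0001696). Gata4, its close relative, was at 12.9 and 13.1 CPM against 0.85, 0.36, 1.03 and 0.65 CPM in the same order of lines, a difference of 4.26 ± 0.44 (adjusted p 0.00351). The gap between the lowest iFoxA1 library and the highest other library was 12.6-fold for Gata4 and 11.9-fold for Gata6.

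The SoxF factors followed the same pattern at lower counts. Sox17 was at 6.32 and 5.76 CPM (132 and 119 counts) in iFoxA1, and the other lines held 1, 7, 2 and 4 counts. The fitted difference was 5.38 ± 0.59. It is given as a description with no p, since Sox17 entered the test only through the iFoxA1 libraries and was bound to be higher there. Sox7 was at 6.12 and 6.92 CPM against 0.14, 0.72, 0.60 and 0.60 CPM, a difference of 3.88 ± 0.63 (adjusted p 0.02306). Sox7 lost its call in 5 of 17 fits that each left out 1 library: without iFoxA1 0 h replicate 1 (adjusted p 0.1709) or replicate 2 (0.1944), iFoxA1 24 h replicate 1 (0.05207) or 2 (0.05163), or the iFoxC1 0 h library (0.0565). Its value stayed between 3.35 and 4.11 in all 17.

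Hnf4a, the nuclear receptor of later visceral endoderm, was not part of this. Its 2 iFoxA1 values of 3.88 and 3.82 CPM overlapped the other lines, which were at 2.23, 3.85, 3.79 and 3.08 CPM. The difference was 0.28 ± 0.83 (adjusted p 0.9439).

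Pdgfra was at 23.4 and 25.0 CPM in iFoxA1 and at 0.81, 1.64, 0.81 and 0.69 CPM in the other lines, a difference of 4.69 ± 0.50 (adjusted p 0.003618). Every iFoxA1 value was at least 14.3 times every other. The call was kept in all 17 fits that left out 1 library, as it was for Gata4, Gata6 and Cubn.

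Of the endocytic genes, Cubn had the largest difference of the 10 members. It was at 56.8 and 56.3 CPM in iFoxA1 and at 0.14, 0.92, 0.43 and 0.69 CPM in iFoxC1, iFoxG1, iFoxL2 and iFoxP3, or 1187 and 1164 counts against 3, 18, 8 and 14. The difference was 6.96 ± 0.55 (adjusted p 0.0005621). Dab2 was at 21.5 and 23.3 CPM against 0.71, 1.39, 1.68 and 1.34 CPM, a difference of 4.19 ± 0.73 (adjusted p 0.02969). The groups were 12.8-fold apart at their nearest, yet this call was the least secure of the 7. It held in 5 of 17 fits that each left out 1 library, was lost without iFoxA1 0 h replicate 1 (adjusted p 0.2061) or replicate 2 (0.2129) and at adjusted p of 0.05636 to 0.05973 without any of 10 others (iFoxA1 24 h replicates 1 and 2, the iFoxC1 and iFoxP3 libraries at 0 h, and both 24 h libraries of iFoxC1, iFoxG1 and iFoxP3), and was lost with limma on log2(TPM + 0.1) (0.1414) and log2(TPM + 1) (0.1517). The log2 value lay between 3.93 and 4.34 whichever library was left out.

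The partners of cubilin differed far less. Lrp2 was at 99.8 and 99.9 CPM in iFoxA1 and at 29.2, 65.9, 61.6 and 59.9 CPM in the other lines, and the difference of 0.95 ± 0.31 did not pass (adjusted p 0.1791). Amn was at 0.81 and 0.68 CPM against 0.43, 0.21, 0.22 and 0.45 CPM, a difference of 1.28 ± 0.44 (adjusted p 0.1985). Neither group of values overlapped, but the lowest iFoxA1 library exceeded the highest other by 1.51-fold for Lrp2 and 1.52-fold for Amn. Lrp2 did pass without iFoxA1 24 h replicate 3 (adjusted p 0.02981), with the library set as a term (0.04927), in the shallower set alone (1.6e-06, where 41.2% of all genes were called) and without both libraries low in their transgene (0.0008295, with 17.9%). Amn passed without either iFoxL2 24 h library (0.03611 and 0.03613), in the shallower set (0.01493) and without both low libraries (0.01328).

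**Figure D1:**
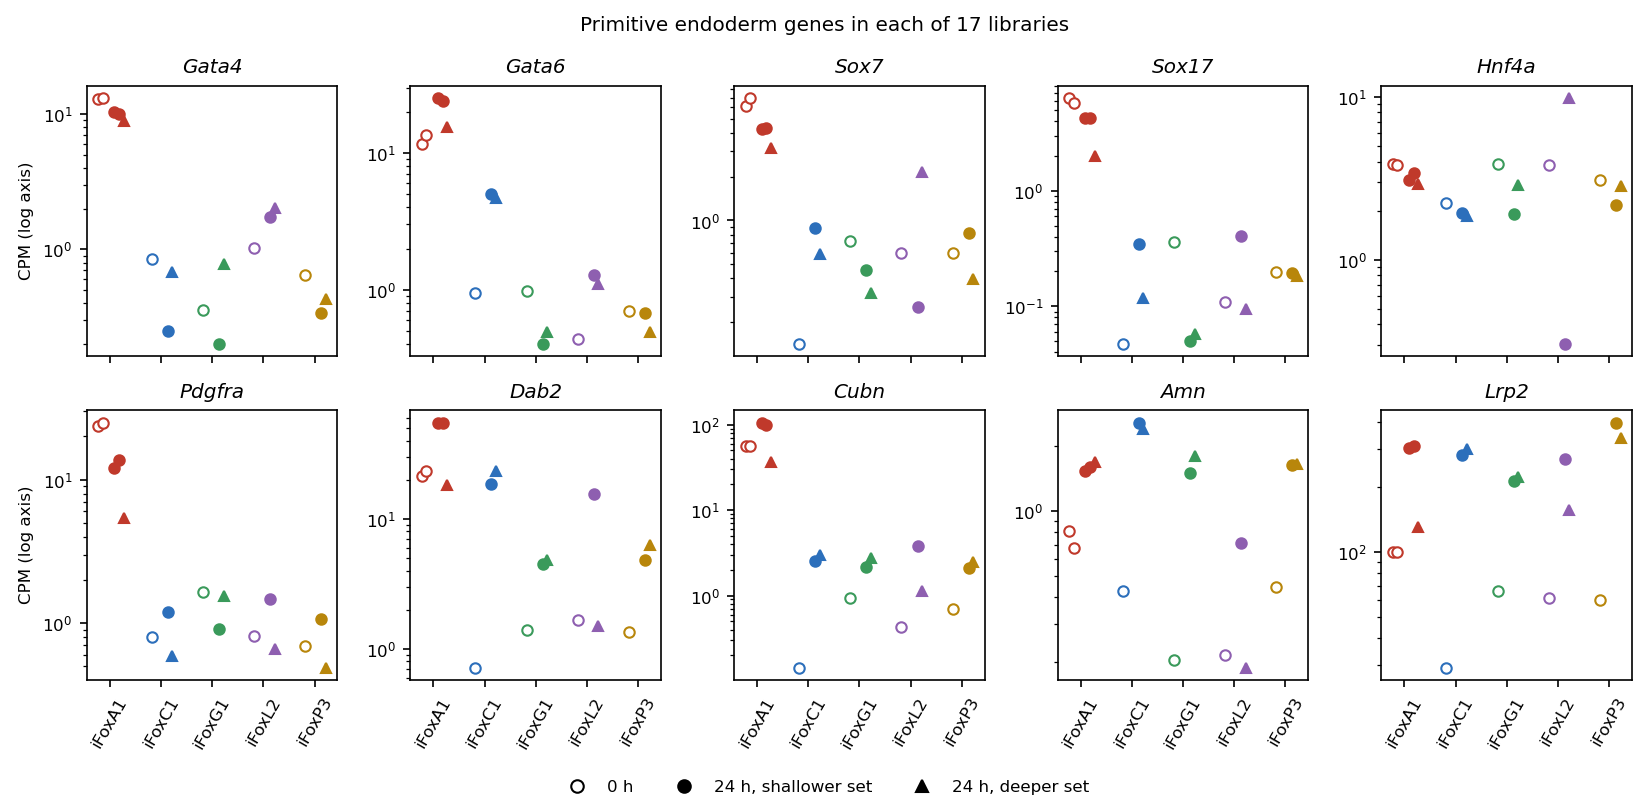
CPM of each gene (log axis) in all 17 libraries by line. Open circles are 0 h libraries, filled circles the shallower and filled triangles the deeper 24 h libraries. At 0 h both iFoxA1 points lie above all other lines except for Hnf4a, and Lrp2 lies above its 0 h level in every line at 24 h.

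On the length-scaled TPM scale, the levels in iFoxA1 at 0 h ran in the order Dab2 (11.1 and 11.6 TPM), Sox17 (9.06 and 7.40), Lrp2 (7.96 and 8.30), Gata6 (6.97 and 8.40), Cubn (6.38 and 6.55), Gata4 (5.99 and 6.61), Pdgfra (5.55 and 5.08), Sox7 (2.53 and 2.89), Hnf4a (1.66 and 1.38) and Amn (0.77 and 0.63). Sox17, Lrp2 and Gata6 overlapped each other, as did Cubn and Gata4, and no other neighbours in this order did. Amn, which cubilin needs to reach the membrane, was thus the lowest of the 10 and cubilin was in the middle. In the other lines at 0 h the order was different. Lrp2 was highest at 2.21 to 4.82 TPM, Hnf4a was at 0.86 to 1.11 TPM, Dab2 overlapped it at 0.42 to 0.91 TPM, and Cubn was lowest by its median at 0.015 to 0.090 TPM.

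Over the 24 h course all 4 endocytic genes rose on average, and of the 5 factors Gata6 did. The 5 lines' changes, averaged with equal weight, called 5 of the 10 members higher at 24 h and 0 lower, where 21.7% of all genes were higher and 16.1% lower. Lrp2 rose by 2.15 ± 0.22 (log2, SE; adjusted p 9.934e-05), Amn by 1.90 ± 0.29 (0.0009773), Cubn by 2.07 ± 0.38 (0.002565) and Dab2 by 2.39 ± 0.51 (0.005452), all with edgeR. Each of these 4 calls was kept in all 17 fits that left out 1 library. On the TPM scale, limma with a pseudocount of 1 did not call Dab2 (adjusted p 0.05156) or Cubn (0.519), and with a pseudocount of 0.1 it did not call Cubn (0.08302).

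Lrp2 was higher in every 24 h library than in its own line at 0 h, in 5 of 5 lines. It went from 99.8 and 99.9 to 302, 309 and 130.4 CPM in iFoxA1, from 29.2 to 282 and 300.1 CPM in iFoxC1, from 65.9 to 213 and 223 CPM in iFoxG1, from 61.6 to 269 and 157 CPM in iFoxL2 and from 59.9 to 398 and 336 CPM in iFoxP3. The lowest 24 h libraries of all were iFoxA1 replicate 3 and iFoxL2 replicate 2.

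Amn was also low everywhere at 0 h and went to 1.54, 1.61 and 1.69 CPM in iFoxA1, 2.58 and 2.42 CPM in iFoxC1, 1.51 and 1.80 CPM in iFoxG1, 0.71 and 0.19 CPM in iFoxL2, and 1.64 and 1.65 CPM in iFoxP3. Only iFoxL2 replicate 2 did not exceed its line's 0 h level. For Cubn every 24 h library exceeded the 0 h level in the 4 lines other than iFoxA1, but its levels stayed far apart between iFoxA1 and the rest. It reached 106, 100.5 and 36.5 CPM in iFoxA1, and 1.13 to 3.81 CPM over the 8 libraries of the other lines.

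Levels of Dab2 at 24 h varied between lines, but the edgeR test of any difference among the 5 changes did not pass (adjusted p 0.6221). Dab2 was at 55.2, 54.8 and 18.1 CPM in iFoxA1 at 24 h, and at 18.4 and 23.6 CPM in iFoxC1, whose 0 h library had 0.71 CPM. iFoxG1 reached 4.53 and 4.82 CPM and iFoxP3 4.84 and 6.32 CPM. The iFoxL2 replicates were far apart, at 15.6 and 1.505 CPM, the second below the 1.68 CPM of that line at 0 h.

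Among the factors, Gata6 alone passed the test of the average change, at 0.64 ± 0.16 (adjusted p 0.01221), and its course went in different directions. It went from 11.6 and 13.5 to 25.1, 23.8 and 15.6 CPM in iFoxA1, from 0.95 to 5.01 and 4.66 CPM in iFoxC1 and from 0.43 to 1.27 and 1.10 CPM in iFoxL2. In iFoxG1 it was at 0.98 CPM at 0 h and 0.40 and 0.49 CPM at 24 h, and in iFoxP3 at 0.69 and then 0.68 and 0.49 CPM. The average rested on 0 h libraries with no replicate: without that of iFoxC1 it was 0.21 (adjusted p 0.516), and without that of iFoxL2 0.43 (0.08882). On the TPM scale limma gave adjusted p of 0.5541 and 0.5201 with pseudocounts of 0.1 and 1.

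The other factors and Pdgfra did not pass. Gata4 changed by -0.12 ± 0.29 on average and Sox17 by -0.05 ± 0.54. Sox7 changed by 0.35 ± 0.42, Pdgfra by -0.20 ± 0.32 and Hnf4a by -0.22 ± 0.50. Their levels in iFoxA1 were nonetheless lower at 24 h than at 0 h in every library. Gata4 went from 12.9 and 13.1 to 10.4, 9.99 and 8.81 CPM. Sox7 was at 4.27, 4.30 and 3.16 CPM and Sox17 at 4.27, 4.30 and 1.98 CPM at 24 h, with 6.12 to 6.92 and 5.76 to 6.32 CPM before. Pdgfra was at 12.1, 13.6 and 5.38 CPM after 23.4 and 25.0 CPM, a change of -1.23 ± 0.50 (adjusted p 0.1606). That change did pass as lower with limma on log2(TPM + 1) (-0.95, 0.01055). In the shallower set alone, where every group outside iFoxA1 holds 1 library, the change was -0.92 for Pdgfra and -0.62 for Sox7.

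Hnf4a at 24 h depended on the 2 iFoxL2 libraries, which lay on either side of all others. It was at 0.30 and 9.78 CPM in the iFoxL2 replicates, or 6 and 312 counts, while every other 24 h library lay between 1.86 and 3.38 CPM. Without iFoxL2 24 h replicate 2, the average change was -1.03 (adjusted p 0.0006729), and the change within iFoxL2 was -3.60 (adjusted p 0.002757) where all libraries gave 0.42 ± 1.20 (0.8847). Without iFoxL2 24 h replicate 1 it was 1.37 (0.04947), so either library left out gave a call, in opposite directions.

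Changes were also tested line by line, where each line but iFoxA1 had 1 library at 0 h whose spread was borrowed from the other groups. In iFoxA1 it called 1 of 10 higher (Lrp2, 1.31 ± 0.36, adjusted p 0.04576) and 0 lower, where 6.63% of all genes were higher and 4.14% lower. In iFoxC1 it called 4 higher and 0 lower, against 6.25% and 3.48% of all genes. These were Gata6 (2.34 ± 0.38, adjusted p 0.007647), Lrp2 (3.32 ± 0.55, 0.007812), Cubn (4.23 ± 1.07, 0.03808) and Amn (2.53 ± 0.68, 0.04635). Dab2 in iFoxC1 missed the threshold at 4.87 ± 1.37 (0.05354). The Cubn change in iFoxC1 starts from 3 counts at 0 h, so its ratio of 19.8 has a 95% counting interval from 6.63 to 96.9.

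In iFoxG1 1 member was higher, Amn (2.98 ± 0.73, adjusted p 0.04672), and 0 were lower, against 3.34% and 2.30% of all genes. In iFoxP3 1 was higher, Lrp2 (2.62 ± 0.52, 0.02291), and 0 lower, against 3.26% and 2.79%. In iFoxL2 0 members were called in either direction, against 2.30% higher and 1.93% lower of all genes. Gata6, Dab2, Cubn and Lrp2 in iFoxL2 were at 1.44 ± 0.41, 2.34 ± 1.18, 2.47 ± 0.92 and 1.79 ± 0.50 there. At an unadjusted p below 0.05 there were 3 (Gata6, Cubn and Lrp2), and DESeq2 called 2 (Cubn and Lrp2). The shares of all genes by these looser or other criteria are not given here.

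Most of these calls within lines depended on which libraries were used. In iFoxA1, Lrp2 was kept in 7 of 17 fits that left out 1 library, and was lost among others without either 0 h replicate (adjusted p 0.254 and 0.2469) or without 24 h replicate 1 or 2 (0.1189 and 0.1201). In iFoxC1, Gata6 and Lrp2 were kept in 16 of 16 fits, Cubn in 7 and Amn in 6. In iFoxG1, Amn was lost in 10 fits, among them those without either of its own 24 h replicates (0.1011 and 0.1657). In iFoxP3, Lrp2 was lost without either of its own 24 h replicates (0.0803 and 0.06598). None of the edgeR calls within iFoxA1, iFoxC1, iFoxG1 and iFoxP3 passed with limma on the TPM scale at either pseudocount, where adjusted p ran from 0.06898 to 0.8719.

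**Figure D2:**
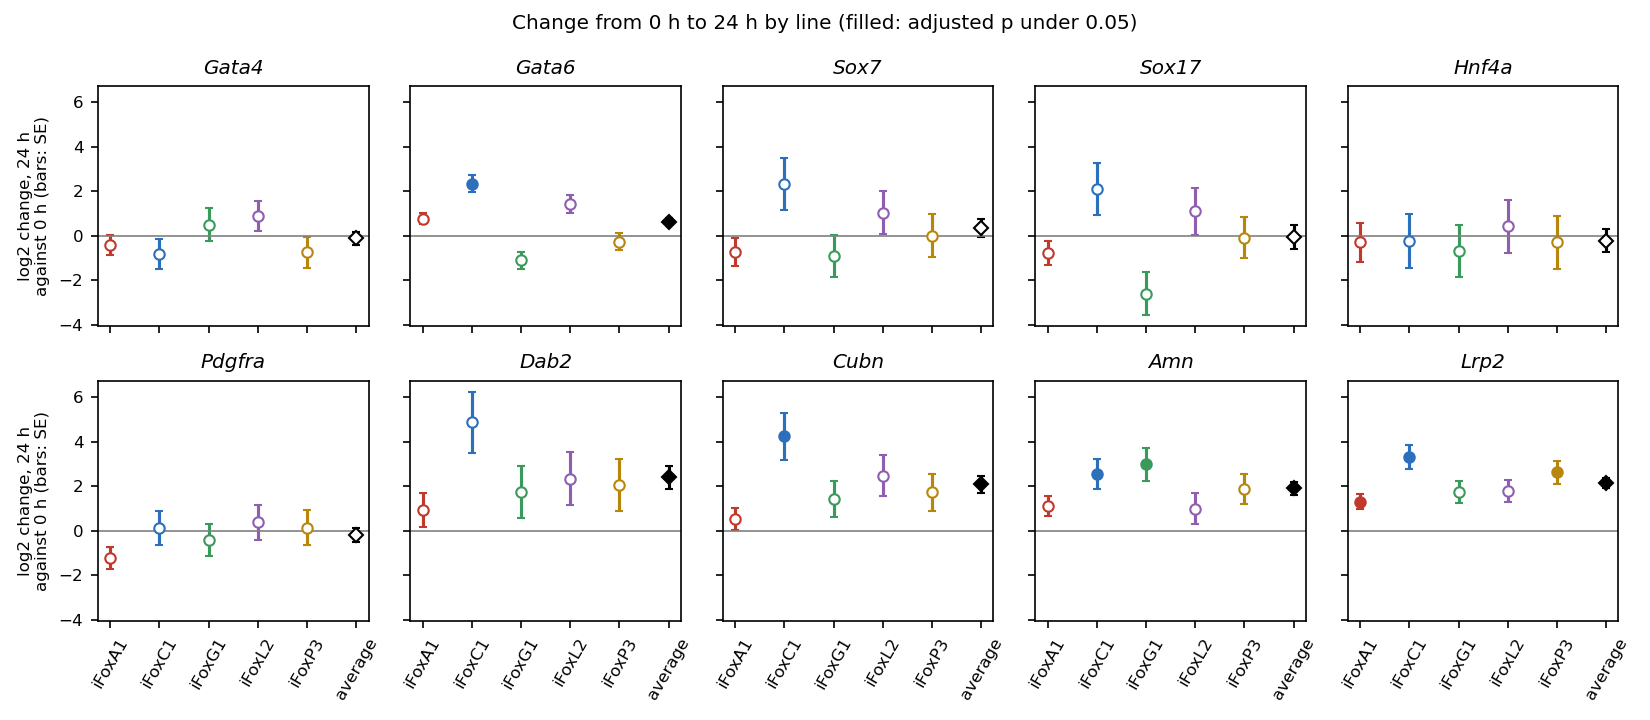
Change from 0 h to 24 h (log2) of each gene in each line and on average over lines, with SE bars. Filled symbols passed the edgeR test at an adjusted p under 0.05. The average of Lrp2, Amn, Cubn, Dab2 and Gata6 is filled and above 0, and that of the 5 other genes is open and near 0.

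The changes were then compared between lines. The test of any difference among the 5 changes called 0 of 10 members, where it called 1.00% of all genes. Gata6 was nearest (F 13.4, adjusted p 0.05496), and it was the 1 member with an unadjusted p below 0.05. DESeq2 called it (0.003151). Set against the mean change of the 4 other lines, the change in iFoxA1 called 0 members higher and 0 lower, where 1.39% and 1.70% of all genes were called, with 2 members at an unadjusted p below 0.05 (Cubn and Lrp2). The median over the 10 members was -1.02, against -0.02 over all genes. Cubn differed most, at -1.94 ± 0.67 (adjusted p 0.167), and DESeq2 called it (0.04313). The shares of all genes at an unadjusted p below 0.05, or called by DESeq2, are not given here.

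The iFoxA1 replicates at 24 h differed from each other. Replicate 3, the deeper library with the least Foxa1, was the lowest of the 3 for 9 of 10 members, Amn being the exception. The mean of replicates 1 and 2 exceeded replicate 3 by 3.04-fold for Dab2, 2.83-fold for Cubn, 2.39-fold for Pdgfra, 2.35-fold for Lrp2 and 2.16-fold for Sox17. It exceeded it by 1.57-fold for Gata6, 1.35-fold for Sox7, 1.16-fold for Gata4 and 1.10-fold for Hnf4a. Against the 0 h level of the line, Dab2 and Cubn were above it in replicates 1 and 2 and below it in replicate 3. In iFoxL2, replicate 2 was likewise below replicate 1 for 7 of 10 members, by 10.4-fold for Dab2, while Hnf4a, Sox7 and Gata4 were higher in it. The shares of all genes lowest in iFoxA1 replicate 3, or lower in iFoxL2 replicate 2, are not given here. In the other 3 deeper libraries, replicate 2 of iFoxC1, iFoxG1 and iFoxP3, Dab2 and Cubn were not lower: replicate 1 over replicate 2 was 0.783, 0.94 and 0.766 for Dab2 and 0.849, 0.777 and 0.861 for Cubn. Their own transgene was not low in iFoxC1 (274 and 289 CPM) or iFoxP3 (218 and 247 CPM). Naive pluripotency markers were higher in both libraries low in their transgene than in the other replicates of their lines. Esrrb was at 171, 172 and 726 CPM in iFoxA1 replicates 1, 2 and 3 and at 66.0 and 468 CPM in iFoxL2 replicates 1 and 2. Nanog was at 51.2, 49.96 and 297 CPM and at 94.2 and 209 CPM, and Zfp42 at 223, 222.8 and 506 CPM and at 124 and 491 CPM. The part of these shifts in the members' levels was not tested.

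**Figure D3:**
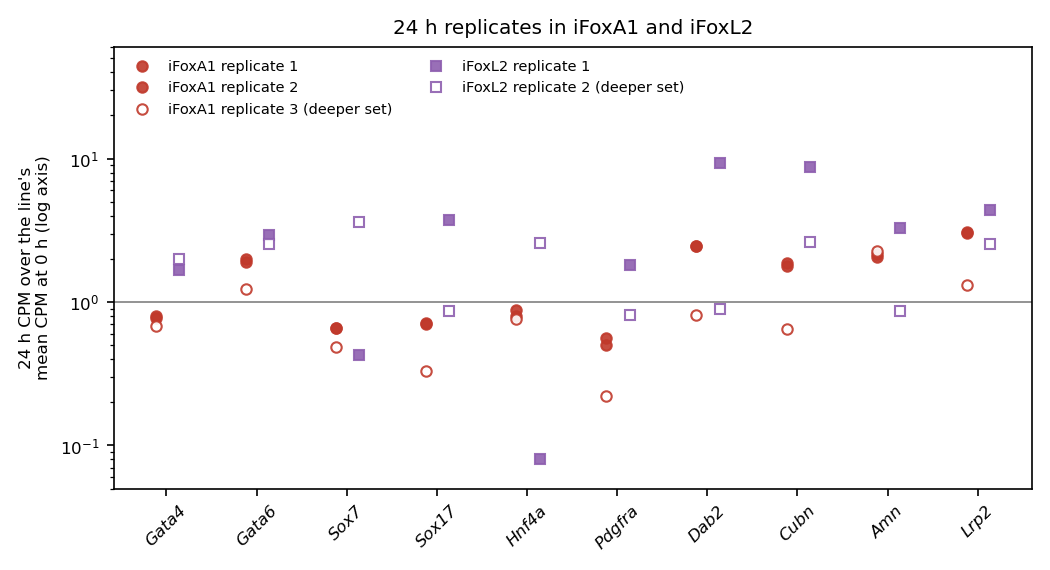
CPM of each gene in single 24 h libraries of iFoxA1 and iFoxL2, divided by the line's mean CPM at 0 h (log axis). Open symbols are the deeper libraries. In iFoxA1, Dab2 and Cubn lie above 1 in replicates 1 and 2 and below 1 in replicate 3.

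With iFoxA1 replicate 3 and iFoxL2 replicate 2 of 24 h both left out, 5 members were higher at 24 h within iFoxA1 (Gata6, 0.95, adjusted p 0.004949; Dab2, 1.29, 0.001362; Cubn, 0.86, 0.003325; Amn, 1.06, 0.01391; and Lrp2, 1.61). The share of all genes called in either direction rose with it, to 26.2%. In the comparison of iFoxA1's change with the mean of the other lines, 4 members were then lower (Dab2, Cubn, Amn and Lrp2), where 18.7% of all genes were called.

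At 24 h iFoxA1 was again set against the other lines. The same number of members, 7, was higher and 0 lower, where 8.88% of all genes were higher and 6.24% lower, with a median of 2.97 over the members and 0.01 over all genes. Gata6 differed by 4.27 ± 0.17 (adjusted p 1.763e-06), Cubn by 5.02 ± 0.35 (4.104e-05), Gata4 by 3.89 ± 0.32 (8.323e-05), Pdgfra by 3.42 ± 0.36 (0.0003085), Sox7 by 2.52 ± 0.46 (0.005528) and Dab2 by 2.37 ± 0.51 (0.01304). Sox17, again with no p for the reason given at 0 h, differed by 4.47 ± 0.42, and without it 6 of 9 members were higher with a median of 2.52. Amn (0.29 ± 0.32), Lrp2 (-0.10 ± 0.25) and Hnf4a (0.18 ± 0.65) did not pass. Without iFoxA1 24 h replicate 1 or 2, Dab2 was lost (adjusted p 0.06651 and 0.06434), as it was with limma on the TPM scale (0.097 and 0.07588). Without iFoxL2 24 h replicate 2, Hnf4a was called at 1.21 (0.002139).

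For 6 members every iFoxA1 library at 24 h lay above every library of the other lines: Gata4, Gata6, Sox7, Sox17, Pdgfra and Cubn. Sox17 passed the filter through iFoxA1 alone, and the share of all genes without overlap at 24 h is not given here. Sox7 came nearest to an overlap, with 3.16 CPM in iFoxA1 replicate 3 and 2.16 CPM in iFoxL2 replicate 2. The 6 must then also lie apart within each library set, so that adds no support. In the shallower set Dab2 and Hnf4a joined them, Dab2 at 54.8 and 55.2 CPM against at most 18.4 CPM. In the deeper set Dab2 did not, at 18.1 CPM in iFoxA1 and up to 23.6 CPM in the others.

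**Figure D4:**
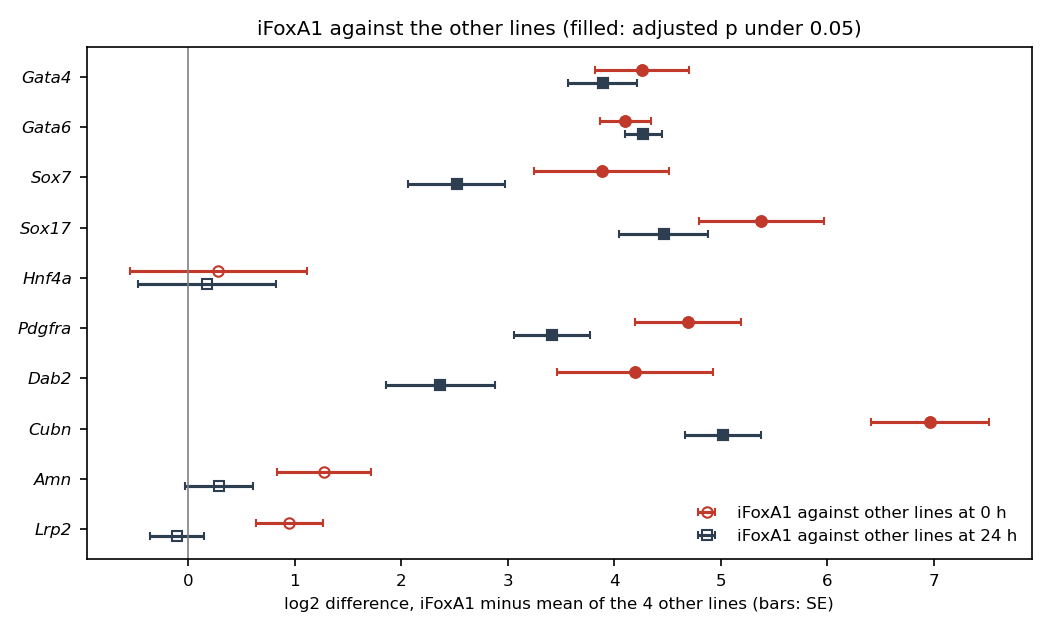
Difference between iFoxA1 and the mean of the 4 other lines (log2, SE bars) at 0 h (circles) and 24 h (squares). Filled symbols passed the edgeR test at an adjusted p under 0.05. Cubn lies farthest right at both times, and Hnf4a, Amn and Lrp2 are open at both.

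Other genes of the lineage were read from lists. Of 12 further primitive endoderm factors and regulators, all tested, 2 were higher in iFoxA1 at 0 h and 0 lower, with a median of 0.80. Of the 10 that would pass the filter without iFoxA1, 1 was higher, and the median was 0.48. The shares of all genes at 0 h were 1.20% higher and 0.384% lower. Foxq1, a forkhead factor, was at 9.90 and 8.96 CPM against 0 to 0.298 CPM, and Foxa2 was at 2.39 and 2.32 CPM against 0.0948 to 0.216 CPM. Both passed the filter through iFoxA1 alone, as Sox17 did, so no p is given for them. At 24 h 6 of the 12 were higher in iFoxA1 and 0 lower, or 4 of those 10, where the shares of all genes were 8.88% and 6.24%.

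A list of basement membrane genes was read next. Of its 24 genes, typical of parietal endoderm and all tested, 9 were higher in iFoxA1 at 0 h and 0 lower, with a median of 1.11. Among all genes 1.20% were higher then and 0.384% lower. The type IV collagens Col4a1 and Col4a2 were at 228 and 225 CPM and at 127 and 118 CPM in iFoxA1, against 18.1 to 27.5 and 6.75 to 10.1 CPM in the other lines. These are differences of 3.48 ± 0.21 (adjusted p 0.0001696) and 3.84 ± 0.14 (4.207e-06). Srgn, the proteoglycan serglycin, and Pth1r, the receptor for parathyroid hormone-related protein, were higher by 3.72 ± 0.25 (0.000383) and 3.21 ± 0.25 (0.0005621). The summed TPM of the list was 1268 and 1269 in iFoxA1 and 576 to 715 in the other lines. At 24 h 13 of the 24 were higher in iFoxA1 and 1 lower, where 8.88% and 6.24% of all genes were.

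Genes of mature visceral endoderm were also read. Of 26 listed for secretion and transport, 20 were tested, and 2 were higher (Ihh, a hedgehog ligand, and Car4, a carbonic anhydrase) and 0 lower, with a median of 0.43, or 0.35 with the 5 genes that had a group at 0 counts set to a floor of 3 counts. Ihh passed the filter through iFoxA1 alone, and without such genes 1 of 16 was higher, beside 1.20% of all genes. At 24 h 11 of the 20 were higher in iFoxA1 and 1 lower (7 and 1 of the 16, with 8.88% and 6.24% of all genes), among the higher the apolipoprotein gene Apom at 8.90 to 41.7 CPM against 0.755 to 6.75 CPM. Of 11 genes of anterior visceral endoderm, 1 was higher at 0 h (Dkk1, a WNT antagonist, 6.27 and 7.36 CPM against 0.0948 to 0.462 CPM) and 0 lower, with a median of 0.30, or -0.10 at the floor. Dkk1 too passed the filter through iFoxA1 alone, and 0 of the other 10 were higher. At 24 h 4 of the 11 were higher and 0 lower, or 3 of those 10.

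Of 31 partners of the endocytic receptors, 30 were tested, and at 0 h 2 were higher in iFoxA1 and 0 lower, with a median of 0.10. They were Clcn5, the endosomal chloride transporter (0.82 ± 0.13, adjusted p 0.02208), and Lrpap1, the chaperone of megalin (0.65 ± 0.13, 0.04333). At 0 h 1.20% of all genes were higher in iFoxA1 and 0.384% lower. On average over the 24 h course 13 of the 30 rose and 2 fell, where 21.7% of all genes rose and 16.1% fell. Among them Lrpap1 rose by 0.42 ± 0.08 (0.003089), Clcn5 by 1.04 ± 0.09 (2.865e-05) and Myo6, the motor of endocytic vesicles, by 0.90 ± 0.10 (0.0001586). Gif, gastric intrinsic factor, whose complex with vitamin B12 cubilin binds, was listed at 0 TPM in every library, and Tcn2, the transcobalamin that megalin takes up, did not pass in either comparison (0.2767 and 0.282).

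Of 30 genes of FGF and PDGF signalling, 1 was higher at 0 h (Etv1, 0.83 ± 0.12, adjusted p 0.01376) and 0 lower, with a median of 0.30. Among all genes 1.20% were higher at 0 h and 0.384% lower. The PDGFRA ligand Pdgfa was at 54.5 and 55.1 CPM in iFoxA1 and at 46.3 to 67.9 CPM in the other lines, so the receptor differed where this ligand did not pass (-0.14 ± 0.48, 0.954). Fgf4 was at 163 and 159 CPM against 163 to 297 CPM. On average 19 of the 30 rose by 24 h and 2 fell, where 21.7% and 16.1% of all genes did, and among those that rose were Fgfr2, an FGF receptor of this lineage (2.65 ± 0.23, 4.457e-05), and the ERK target Dusp6 (2.45 ± 0.11, 1.104e-06). Of 10 other GATA and SoxF genes and cofactors, 7 were tested and 0 were called at 0 h in either direction (1 at an unadjusted p below 0.05, 0 by DESeq2), with a median of -0.34, or -0.48 at the floor.

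Markers of other cells were read beside these. Of 17 naive pluripotency genes, all tested, 0 were higher in iFoxA1 at 0 h and 1 lower (Dppa3, 3.21 and 4.07 CPM against 6.99 to 31.7 CPM), with a median of 0.01. Their summed TPM was 4686 to 4825 in iFoxA1 and 4782 to 6109 in the other lines. Of 14 definitive endoderm genes tested, 1 was higher (Cpm, a carboxypeptidase, 3.35 and 3.15 CPM against 0.616 to 1.19 CPM), and their summed TPM was 100.5 to 103.6 against 24.5 to 169. Of 13 mesoderm genes 1 was higher (Kdr, the VEGF receptor) and of 10 endothelial genes 2 (Kdr and Cdh5), with 7 of the 10 at an unadjusted p below 0.05 and 3 called by DESeq2. Cdh5 passed the filter through iFoxA1 alone. The endothelial sum, 49.9 to 51.8 TPM, lay within 38.0 to 68.4 TPM of the other lines, but Pecam1, which ES cells also express, was 44.3 and 46.5 TPM of it, and the mesoderm sum, 67.6 to 74.5 TPM, above their 21.03 to 60.61 TPM. Of 14 fibroblast genes 1 was higher (Thy1), and of 14 trophoblast and 12 hepatocyte and gut genes 0 were called (1 of each at an unadjusted p below 0.05, and 1 and 0 by DESeq2). The fibroblast sum, 41.5 to 46.2 TPM, lay within 25.6 to 55.4 TPM, the hepatocyte and gut sum, 38.7 to 40.2 TPM, within 26.2 to 43.4 TPM, and the trophoblast sum, 65.2 to 67.2 TPM, overlapped the top of 37.8 to 65.3 TPM. Emcn (endothelium), Tpbpa and Prl3d1 (trophoblast), Fabp2 (gut) and S100a4 (fibroblast) were listed at 0 TPM in all 6 libraries at 0 h, iFoxA1 and other lines alike. None of these lists had a gene that was lower apart from Dppa3. Their median differences were 0.51 (definitive endoderm), 0.82 (mesoderm), 1.31 (endothelium), -0.28 (fibroblast), 0.37 (trophoblast) and 0.10 (hepatocyte and gut). With genes at 0 counts set to the floor they were 0.17, 0.56, 1.31, -0.40, 0.37 and -0.09 in the same order. Their part in the member differences was not tested. By edgeR 1.20% of all genes were higher in iFoxA1 at 0 h and 0.384% lower. The shares at an unadjusted p below 0.05, or by DESeq2, are not given here.

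Within the 17 libraries, the members' closest partners were described by Pearson's r of log2 CPM, with libraries that share lines, times and depth sets. Sox17 and Pdgfra were closest (r 0.94), followed by Cubn with Sox17 (0.90), Dab2 with Cubn (0.89), Gata6 with Sox17 (0.88), Sox7 with Sox17 (0.87) and Gata4 with Pdgfra (0.87). Amn was closest to Lrp2 (0.73) and Hnf4a to Sox7 (0.49). Without the iFoxA1 libraries most of these values were lower. Over the 12 libraries of the other lines r was 0.33 for Sox17 and Pdgfra, 0.35 for Cubn and Sox17, 0.39 for Gata6 and Sox17, 0.23 for Sox7 and Sox17 and -0.10 for Gata4 and Pdgfra. It was 0.86 for Dab2 and Cubn, 0.93 for Cubn and Lrp2, 0.75 for Amn and Lrp2 and 0.59 for Hnf4a and Sox7. The other genes whose pattern was most like the mean of the 10 standardised members were Col4a1 (r 0.97, and 0.97 without the 2 iFoxA1 libraries at 0 h), Col4a2 (0.97 and 0.96), Nostrin (0.96 and 0.95), Pomt2 (0.93 and 0.92), Tgfbr2 (0.93 and 0.91), Sh3pxd2b (0.92 and 0.94), Runx1 (0.92 and 0.90) and Ifrd1 (0.92 and 0.97). The second r still includes the iFoxA1 libraries at 24 h, and these genes were picked for their high r in these data. Nostrin was at 6.29 to 7.66 CPM in iFoxA1 at 0 h and 0 to 0.719 CPM in the other lines, and at 5.77 to 20.3 CPM against 0.153 to 0.914 CPM at 24 h.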

How the data were processed

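PolyA RNA from the 17 samples was sequenced with a strand-specific kit, per the labels' protocols. The authors deposited, per transcript, estimated counts and TPM, with transcript lengths, and the submitters' processing notes name Salmon 1.4.0, DESeq2 1.30.1 and mm10. Which annotation they used is not stated in the sources at hand. Of 137271 transcripts, 137225 matched GENCODE M21 by identifier and were summed into 53588 gene symbols. The 46 others held at most 0.0133% of counts.

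Summed estimated counts were rounded, filtered with filterByExpr (minimum count 10), scaled by TMM and fitted with edgeR 4.0.16 in R 4.3.3 (quasi-likelihood, 10 groups of line and time, 7 residual degrees of freedom, Benjamini-Hochberg over 19796 genes, threshold 0.05). The other lines were weighted equally. A lone library at 0 h was thus assumed to vary as the replicated groups do. On simulated data for the 0 h comparison, over 19796 genes, the test recovered 21 of 100 genes changed 2-fold and 80 of 100 changed 4-fold, with 2 unchanged genes called. For the change in iFoxC1 it recovered 0 and 41 of 100, with 0 unchanged genes called. The changed genes were drawn only from those above a set mean CPM. Gata4, Sox7, Sox17, Hnf4a and Amn lie below it, so the recovery does not describe genes at their levels.

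Alternatives were RLE scaling, DESeq2 1.42.0, no filter, limma 3.58.1 on log2(TPM + 0.1) and log2(TPM + 1), the library set as a term or its shallower part alone, a replicate block, iFoxA1 24 h replicate 3 and iFoxL2 24 h replicate 2 (the doubtful libraries, low in their transgene) both left out, and each library left out. The members, the gene lists and the rule for named genes (all members, up to 4 genes per list by smallest adjusted p, ligands and partners that bind a member, and the 8 genes most like them) were chosen with earlier results of these data known. Counting intervals are exact at 95% and cover counting error only. Values of some listed genes are not reported here.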

Additional observations from a re-analysis of the deposited data

How the results depend on the processing

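The counts of members called at 0 h (7) and 24 h (7) between iFoxA1 and the other lines stayed between 6 and 9 under the other settings and between 5 and 8, and 6 and 8, with 1 library left out. These counts include Sox17, which passed the filter through iFoxA1 alone. Calls for changes in time moved more. With RLE scaling iFoxA1 had 0 calls in place of 1. With DESeq2 iFoxG1 had 2 in place of 1, iFoxL2 2 in place of 0, the comparison of iFoxA1's change with the others 1 in place of 0, and the test of any difference 1 in place of 0. Without a filter iFoxL2 had 1. In iFoxC1 Dab2 was gained with DESeq2, without a filter, with the library set as a term and with the replicate block. Dab2 and Sox7 were both gained in iFoxC1 without both doubtful libraries. Amn was lost in iFoxC1 with RLE scaling and without a filter. With limma on log2(TPM + 0.1) the counts were 0 in iFoxA1, iFoxC1, iFoxG1 and iFoxP3 and 3 on average, and on log2(TPM + 1) they were 0 in iFoxC1, iFoxG1 and iFoxP3 and 2 on average. With the library set as a term, iFoxA1, iFoxG1 and iFoxL2 had 2 each and the test of any difference 1. In the shallower set alone (2 residual degrees of freedom) iFoxA1 had 7 (5 higher, 2 lower), iFoxC1 7 (6 and 1), iFoxG1 and iFoxL2 5 each (4 and 1), and iFoxP3 4 (all higher), with 5 for the change of iFoxA1 against the others (1 higher, 4 lower) and 9 for any difference. Without both doubtful libraries iFoxA1 had 5 (all higher), iFoxG1 and iFoxL2 5 each (4 higher, 1 lower) and iFoxP3 4 (all higher), with 4 for the change of iFoxA1 against the others (all lower) and 6 for any difference. With 1 library left out in turn the counts ran from 0 to 2 in iFoxA1, iFoxG1 and iFoxP3, 0 to 3 in iFoxL2, 2 to 6 in iFoxC1, 4 to 6 on average and 0 to 2 for any difference. The share of all genes called also differed, from 36.4% to 61.8% over the comparisons in the shallower set and from 17.9% to 52.7% without both doubtful libraries. The causes were not tested. Shares of all genes called under the remaining settings are not given here, so the member counts there cannot be set against them. Among the values that turned sign was Hnf4a in iFoxL2, at -3.60 in the shallower set and without both doubtful libraries. With 1 library left out it ran from -3.60 to 1.37, the ends being without its 24 h replicate 2 and 1. Hnf4a in the change of iFoxA1 against the others (1.07) and Lrp2 at 24 h (0.11) turned sign in the shallower set. Several others crossed 0 with 1 library left out. Examples are Dab2 (-0.16 to 3.22), Sox7 (-1.20 to 1.85) and Amn (-0.20 to 1.70) in iFoxL2 and Gata4 in iFoxG1 (-0.82 to 1.11).

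Same-numbered libraries did not deviate together in every pair of groups. At 24 h r was 0.5367 to 0.7052 among the 4 other lines, whose replicates 1 and 2 also divide by library set, and 0.4536 to 0.5067 for replicate 1 between iFoxA1 and them. It was -0.5159 to -0.478 for replicate 2 between iFoxA1 and them, and 0.0349 and 0.0056 between iFoxA1 at 0 h and 24 h. The numbers were therefore not taken as pairs. A fit with the replicate block called 8 members at 0 h, 7 at 24 h, 2 each in iFoxA1, iFoxG1 and iFoxL2, and 1 for any difference, and called Lrp2 at 0 h (adjusted p 0.03302). Low counts limit Sox17 in the other lines: its ratio of 24 h to 0 h in iFoxC1 was 4.29 with a counting interval from 0.623 to 184.6.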

Other observations

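Transcripts within the members were not equally represented. Hnf4a in iFoxL2 24 h replicate 2 came almost wholly from Hnf4a-202, which held 309.9 of its 312 counts. That transcript had 63 counts in iFoxC1 24 h replicate 2 and 0 in every other library. Amn was carried by Amn-201 (64.6% of its TPM) and by the retained-intron transcript Amn-202 (33.1%), so part of its TPM is not from a coding transcript. Cubn-201 carried 100% of Cubn TPM, Lrp2-201 99.0% of Lrp2 and Gata6-201 92.1% of Gata6, whereas Gata4 was spread over Gata4-202 (47.8%), Gata4-201 (22.2%), Gata4-203 (13.1%) and Gata4-204 (11.6%). Dab2-203 was the leading Dab2 transcript at 41.3%.

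Car4 differed in opposite directions at the 2 times. It was higher in iFoxA1 at 0 h by 2.54 ± 0.33 (adjusted p 0.009887, edgeR) and lower at 24 h (-2.63 ± 0.19, 4.104e-05), and the test of the difference in change gave -5.17 ± 0.35 (0.0004735). It was at 1.48 and 1.60 CPM in iFoxA1 at 0 h against 0 to 1.04 CPM, and at 3.84 to 5.51 CPM against 9.41 to 64.1 CPM at 24 h. The 2.54 and the -5.17 include a line at 0 CPM at 0 h, and their size depends on it. Of the 17 naive pluripotency genes, 10 fell on average over the 24 h course and 0 rose, where 16.1% of all genes fell and 21.7% rose, with a median of -1.27.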
